A study of Rattus norvegicus with 63 samples.

Results

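The second array type of this rat kidney series was hybridised with RNA from 2 h after an injection of methylprednisolone and from 0 h, and the transcripts that differed between these 2 times are described here. Members were all arrays of that type titled 2h (3 arrays) and 0h (4 arrays), 7 of the 63 arrays of the series. At 2 h the rats had received methylprednisolone, a synthetic glucocorticoid drug; at 0 h they had received nothing, and no animals injected with vehicle were given in the labels. Effects of the drug, of the injection itself and of the hour of day therefore cannot be told apart. Dose, strain, sex and age of the rats are not stated in the labels. Total RNA of whole kidney was measured, so that for any transcript of a single cell type fewer cells of that type and less RNA per cell cannot be told apart. The labels do not say whether numbered samples were separate animals or pools, and the p-values below measure only the spread between these samples.

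Glucocorticoids enter cells and bind the glucocorticoid receptor, which moves to the nucleus and binds DNA at glucocorticoid response elements or acts through other transcription factors such as NF-kappaB, AP-1, STAT and C/EBP proteins. Its direct targets include genes that restrain inflammatory signalling, and genes of amino acid catabolism and glucose production. In the kidney, where glucocorticoids also reach tubule cells that handle sodium, the receptor is known for inducing the kinase Sgk1.

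Array levels were similar between times, with median intensities of 39.1 to 42.8 at 2 h and 41.2 to 45.0 at 0 h. Genes of kidney tubules were bright on all 7 arrays, among them Umod of the thick ascending limb (2230 to 5280 at 2 h and 3570 to 4070 at 0 h) and Slc34a1, which takes up phosphate in proximal tubules (5990 to 7320 at 2 h and 6060 to 7960 at 0 h). One array stood apart: 2 h replicate 2 correlated with the other 2 h arrays with r of 0.877 and 0.890 across probe sets, against 0.950 between those and 0.944 to 0.965 among the 0 h arrays. On that array liver and fat transcripts were high that were near the floor elsewhere. One probe set of the albumin gene Alb had an intensity of 299 there, against 2.3 and 3.27 on the other 2 h arrays and 1.99 to 2.89 at 0 h. A probe set of Ucp1, the uncoupling protein of brown fat, reached 576 there, against 62.7 and 13.2 on the other 2 h arrays and 6.38 to 14.3 at 0 h. The summed level of the 5 red-cell genes was 5004 there, against 1524 and 1650 on the other 2 h arrays and 2517 to 2864 at 0 h. For the 6 adipose genes the sum was 2285 there, against 791 and 951 on the other 2 h arrays and 794 to 953 at 0 h. The 12 liver genes summed to 2478 there, 1782 and 1446 on the other 2 h arrays, and 735 to 2226 at 0 h. Some kidney segments differed too. For the thick ascending limb the sum was 6234 there, 2789 and 2992 on the other 2 h arrays, and 4448 to 4721 at 0 h. In the same order, the distal tubule gave 2004, 4060 and 4427, and 3672 to 5607. The podocyte gave 137, 319 and 373, and 305 to 395. The collecting duct gave 2376, 1673 and 1635, and 1559 to 1733. The proximal tubule sum of 30050 lay between the 28463 and 30450 of the other 2 h arrays. The same array is the only one at 2 h with the letter a in its title, the letter that all 0 h arrays carry; the labels do not explain the letters. What part this array's make-up had in the results was not tested; calls and counts that it moved are given without it beside them.

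Of the 5244 probe sets tested, 253 were higher at 2 h (4.82%) and 261 were lower (4.98%), with limma and a Benjamini-Hochberg adjusted p under 0.05. Large differences were more often increases: 54 of the higher and 11 of the lower probe sets differed by at least 2 on the log2 scale, and 23 of the higher and 0 of the lower by at least 3. Leaving out 2 h replicate 2 gave 233 higher and 159 lower. The median difference was 1.22 among higher probe sets, -1.14 among lower ones and -0.07 over all. The 2 h and 0 h arrays did not overlap for 249 of the 253 higher and 252 of the 261 lower probe sets; over all probe sets tested, 10.9% lay wholly above and 13.4% wholly below. Of the higher probe sets, 43 had a 0 h level below the expression filter (an intensity of 25.3) and entered the test through their level at later times, so that they had to differ to be tested. Of the lower probe sets, 45 had a 2 h level below the filter and entered the test through their level at 0 h or 6 h.

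**Figure D1:**
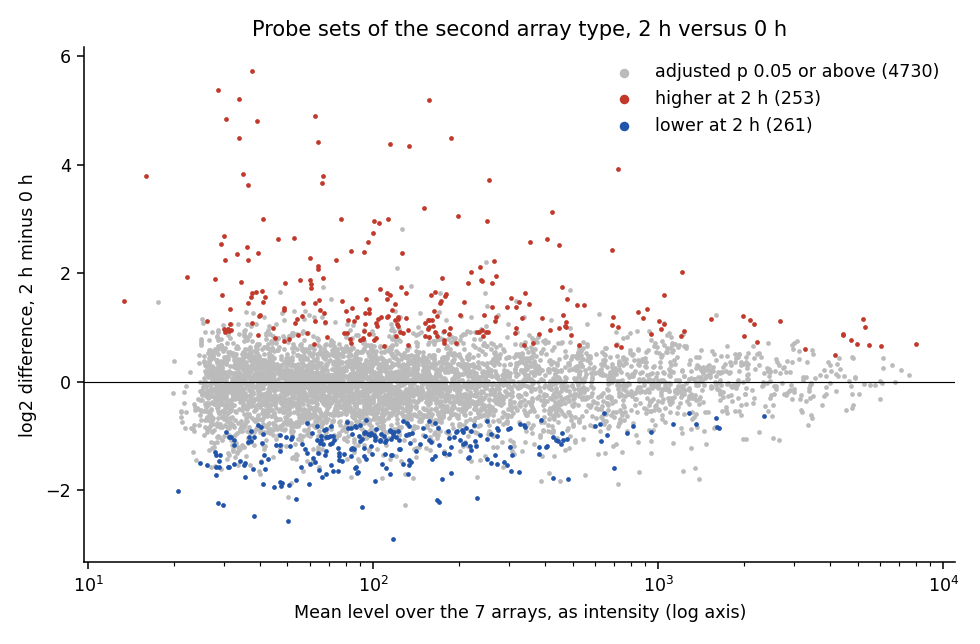
Each point is one of the 5244 probe sets tested on the second array type, with its mean level over the 7 arrays (intensity, log axis) and its log2 difference of 2 h minus 0 h. The 253 probe sets higher at 2 h reach differences above 5, while none of the 261 lower ones passes -3.

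Genes below are named with the probe set that differed most, and the values are scaled intensities per array in the order of the replicate numbers. Differences are on the scale of log2(intensity + 3.54) with their standard error, a scale that understates the change of dim genes. The genes were picked by these same values, so a complete separation of the 2 h from the 0 h arrays is shared by all of them and is not a finding. The 5 genes with the highest difference were the fibrinogen chain Fgg (5.74), the serine dehydratase Sds (5.39), the transcription factor Cebpb (5.21), complement C3 (4.85) and the fibrinogen chain Fga (4.82). The 5 with the lowest were the desaturase Scd2 (-2.90), the cytochrome P450 Cyp2c11 (-2.57), the isomerase Ppil3 (-2.48), the phosphatase Pdp2 (-2.31) and the growth factor Bmp4 (-2.28). The probe sets of the leading higher genes differed in size: another gave 2.36 for Fgg, 3.20 for Cebpb and 2.62 for C3, all past the threshold. The genes ranked next in each direction are described in turn.

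Blood proteins of the acute phase, which the liver secretes in inflammation, were prominent among the increases. Promoter windows are printed for 6 of the leading higher genes, to show the letters next to their starts: Serpina3n, whose window alone among the named genes holds a glucocorticoid response element core, and then the 5 genes with the largest difference that have a window in the table used. The windows are from RefSeq (GRCr8), run 5′ to 3′ from 250 bases before the annotated start to 50 after it, and have motif matches in capitals.
Serpina3n: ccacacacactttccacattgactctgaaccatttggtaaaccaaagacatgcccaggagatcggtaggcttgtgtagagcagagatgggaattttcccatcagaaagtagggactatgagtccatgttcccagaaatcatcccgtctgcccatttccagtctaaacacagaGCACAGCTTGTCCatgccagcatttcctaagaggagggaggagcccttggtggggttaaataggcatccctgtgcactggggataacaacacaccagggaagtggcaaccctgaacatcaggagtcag
Fgg: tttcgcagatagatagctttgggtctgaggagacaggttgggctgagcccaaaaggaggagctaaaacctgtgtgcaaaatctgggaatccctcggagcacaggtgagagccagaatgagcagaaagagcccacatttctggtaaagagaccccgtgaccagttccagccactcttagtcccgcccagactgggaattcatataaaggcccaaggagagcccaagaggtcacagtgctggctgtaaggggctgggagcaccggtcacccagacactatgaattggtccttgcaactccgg
Cebpb: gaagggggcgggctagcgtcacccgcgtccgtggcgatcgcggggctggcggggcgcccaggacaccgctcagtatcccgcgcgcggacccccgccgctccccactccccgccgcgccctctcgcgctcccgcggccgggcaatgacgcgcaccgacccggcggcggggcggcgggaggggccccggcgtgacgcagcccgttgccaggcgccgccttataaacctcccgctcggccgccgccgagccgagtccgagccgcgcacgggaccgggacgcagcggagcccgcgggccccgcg
C3: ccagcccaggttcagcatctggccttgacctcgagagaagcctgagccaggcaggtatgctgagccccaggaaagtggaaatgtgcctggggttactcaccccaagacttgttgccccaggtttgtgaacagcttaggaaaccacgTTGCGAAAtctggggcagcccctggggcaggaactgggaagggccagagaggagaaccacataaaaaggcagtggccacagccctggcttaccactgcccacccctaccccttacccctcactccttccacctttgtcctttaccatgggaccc
Fga: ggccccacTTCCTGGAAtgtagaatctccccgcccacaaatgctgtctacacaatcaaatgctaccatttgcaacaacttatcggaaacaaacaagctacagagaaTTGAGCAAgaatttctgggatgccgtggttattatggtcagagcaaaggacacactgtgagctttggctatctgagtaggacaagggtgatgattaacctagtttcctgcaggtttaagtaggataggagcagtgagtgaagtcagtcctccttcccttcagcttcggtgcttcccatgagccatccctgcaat
Fgb: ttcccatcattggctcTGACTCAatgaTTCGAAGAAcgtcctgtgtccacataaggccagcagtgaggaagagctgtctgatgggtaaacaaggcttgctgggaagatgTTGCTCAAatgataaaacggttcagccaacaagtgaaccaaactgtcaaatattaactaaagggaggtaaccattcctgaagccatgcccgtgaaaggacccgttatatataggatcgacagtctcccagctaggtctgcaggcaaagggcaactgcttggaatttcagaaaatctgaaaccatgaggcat
These windows lie at chr6:129088142-129088441 on the plus strand (Serpina3n), chr2:170652833-170653132 on the plus strand (Fgg), chr3:176816755-176817054 on the plus strand (Cebpb), chr9:2201290-2201589 on the minus strand (C3), chr2:170671919-170672218 on the plus strand (Fga) and chr2:170700826-170701125 on the minus strand (Fgb). The motifs searched, on both strands, were the core of the glucocorticoid response element, TTGCNNAA for C/EBP, TTCNNNGAA for STAT factors, TGANTCA for AP-1 and the kappaB consensus. In Serpina3n the capitals mark the glucocorticoid response element core GCACAGCTTGTCC, which begins 78 bases before the start, and the same window holds the STAT letters ttcccagaa in lower case. In Fga they mark TTCCTGGAA (STAT) and TTGAGCAA (C/EBP, read on the other strand) and in C3 TTGCGAAA (C/EBP). In Fgb they mark TTCGAAGAA (STAT), TTGCTCAA (C/EBP) and the AP-1 match TGACTCA. The windows of Fgg and Cebpb hold none of these letters. Within the 2 h arrays and with the probe sets named, Serpina3n and C3 were highest on replicate 2, and Fgg, Cebpb, Fga and Fgb were lowest there. The other probe set of C3 had 139, 115 and 162 at 2 h, so that replicate 2 was the lowest with it.

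Over windows of the same length, the glucocorticoid response element core was present in 2 of 124 genes higher at 2 h (1.61%) and in 0 of 176 lower genes. It was present in 15 of the 2612 tested genes with a window (0.574%) and in 116 of 27457 windows in all (0.422%). The kappaB consensus was present in 12.1% of the higher genes' windows, 2.27% of the lower genes', 4.94% of the tested genes' and 4.16% of all. Among the named genes it was found as GGGAAATTCC in Cxcl10, GGAATGTCCC in Lcn2 and GGAAATTCCC in Nfkbia, all higher, and as GGAGTCTCCC in Cyp2c11, which was lower. STAT letters were present in 12.9% of the higher, 5.68% of the lower, 6.32% of the tested genes' and 8.68% of all windows. For C/EBP the shares were 12.9%, 9.09%, 9.11% and 10.5%, over higher, lower, tested and all windows in that order. For AP-1 they were 8.06%, 2.84%, 5.4% and 7.33% in the same order. A match describes letters in a short window and not a bound site.

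The third fibrinogen chain, Fgb, had 645, 94.1 and 918 at 2 h, against 16.4, 11.3, 14.4 and 17.3 at 0 h. Fibrinogen chains assemble into the precursor of fibrin clots. It was higher by 4.41 ± 0.86 (SE; adjusted p = 0.0108), and 2 h replicate 2 was the lowest of the 2 h arrays. Lcn2, the iron-siderophore-binding lipocalin known as NGAL and released by injured tubules, had 897, 344 and 1430 at 2 h, against 42, 35.2, 26.7 and 34.3 at 0 h. Its difference was 4.34 ± 0.65 (adjusted p = 0.00241). Hp, which encodes the haemoglobin-binding protein haptoglobin, had 120, 1100 and 150 at 2 h, against 48.4, 39.2, 37.2 and 47.5 at 0 h. Here the array carrying liver transcripts was the highest, and the difference of 2.57 was 1.57 without it, still past the threshold, but the call was lost without 0 h replicate 2 (adjusted p = 0.0505) or 0 h replicate 3 (0.0535). Serpina3n, a secreted serine protease inhibitor, had 176, 371 and 224 at 2 h, against 65.1, 33.5, 42.5 and 40.3 at 0 h, a difference of 2.38 ± 0.36 (adjusted p = 0.00241).

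Transcription factors and signalling brakes rose, several of them known glucocorticoid targets. Cebpd, a C/EBP family factor, had 222, 209 and 225 at 2 h, against 6.34, 8.84, 5.13 and 5.44 at 0 h. The difference was 4.49 ± 0.27 (adjusted p = 5.92e-06) with that probe set and 2.75 with a brighter one, while another gave 0.17 (adjusted p = 0.639). Nfkbia encodes the inhibitor that holds NF-kappaB in the cytoplasm. It had 801, 535 and 712 at 2 h, against 88.5, 76.4, 71.9 and 73.6 at 0 h, an 8.36-fold difference (adjusted p = 7.96e-06). Dusp1, a phosphatase that inactivates MAP kinases, had 280, 272 and 234 at 2 h, against 15.1, 30.8, 29.9 and 51.7 at 0 h (adjusted p = 0.000204); its other probe sets gave 2.66 and 1.10, both past the threshold. That the 2 h arrays of Dusp1 lay above its 0 h arrays was a condition of the choice. Klf6, a zinc-finger transcription factor, had 518, 203 and 509 at 2 h, against 76.5, 84.9, 9.96 and 51.2 at 0 h, with replicate 2 the lowest at 2 h and replicate 3 the lowest at 0 h. Its difference was 2.99 ± 0.61 (adjusted p = 0.0128).

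Among secreted and signalling proteins, Igfbp1, a binding protein that limits the action of insulin-like growth factors, was the brightest. It had 3910, 2380 and 4300 at 2 h, against 294, 209, 250 and 160 at 0 h, a 15.1-fold difference (3.92 ± 0.25, adjusted p = 5.92e-06). Cxcl10, an interferon-inducible chemokine that attracts T cells, had 1470, 112 and 1770 at 2 h, against 35.3, 30.3, 31.2 and 19.8 at 0 h. Replicate 2 thus lay far below the other 2 h arrays, though above every 0 h array (4.38 ± 0.74, adjusted p = 0.00511; 5.65 without it). Pla1a, a phospholipase that acts on phosphatidylserine, had 202, 104 and 237 at 2 h, against 7.94, 5.68, 11.2 and 11.3 at 0 h (3.82 ± 0.33, adjusted p = 5.35e-05). Cldn3, a claudin of epithelial tight junctions, had 81.2, 265 and 37.2 at 2 h, against 19.4, 8.49, 10.4 and 10.1 at 0 h. Its 2 h arrays spread widely (2.69 ± 0.51, adjusted p = 0.0092; 1.29 and adjusted p = 0.086 for its other probe set).

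The genes ranked 16 to 25 included enzymes and regulators of epithelial function. Sgk1, the kinase that keeps the epithelial sodium channel at the cell surface, had 1500, 818 and 1280 at 2 h, against 176, 121, 169 and 313 at 0 h (2.64 ± 0.30, adjusted p = 0.000549). Amd1, the decarboxylase that supplies aminopropyl groups for polyamines, was higher by 2.57 ± 0.34. Errfi1, an inhibitor of the epidermal growth factor receptor, was higher by 2.43 ± 0.36, while 2 further probe sets, at 1.09 (adjusted p = 0.0796) and 0.93 (adjusted p = 0.259), did not pass. Sult1a1, a sulfotransferase of drugs and hormones, was higher by 2.41 ± 0.45. Havcr1, the kidney injury molecule of damaged proximal tubules, had 138, 43.4 and 176 at 2 h, against 38, 21.4, 6.63 and 8.77 at 0 h (2.48 ± 0.53, adjusted p = 0.015). Timp1, an inhibitor of matrix metalloproteinases, was higher by 2.28 ± 0.47 with 1 probe set and by 0.96 with its brighter one. S100a9, a subunit of the neutrophil protein calprotectin, was higher by 2.54 ± 0.46, and Clec10a, a lectin of macrophages and dendritic cells, by 2.24 ± 0.39. All 25 leading higher genes remained past the threshold without 2 h replicate 2; 12 of them, Cebpd, Fgb, Pla1a, Cldn3, S100a9, Havcr1, Clec10a and the 5 with the highest difference, had a 0 h level below the filter.

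**Figure D2:**
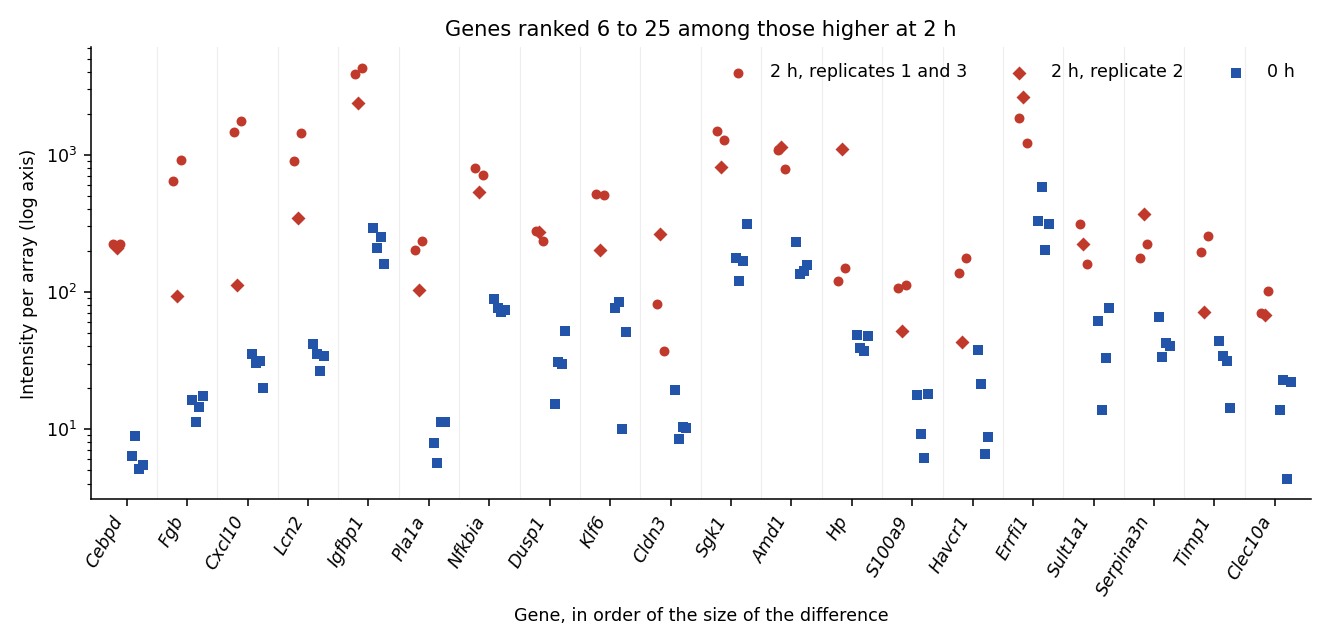
Intensities per array (log axis) of the genes ranked 6 to 25 among those higher at 2 h, with 2 h arrays in red on the left of each gene and 0 h arrays in blue on the right. Diamonds mark 2 h replicate 2, which lies below the other 2 h arrays for genes such as Fgb, Cxcl10, Lcn2 and Klf6 and above them for Hp, Cldn3 and Serpina3n.

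Decreases were smaller and spanned lipid, transport, signalling and developmental genes. Mamdc4, which encodes an apical endosomal glycoprotein, had 12.5, 6.79 and 10.6 at 2 h, against 59.8, 60.5, 60 and 55 at 0 h (-2.23 ± 0.24, adjusted p = 0.000324). G0s2, an inhibitor of the triglyceride lipase ATGL, had 48.9, 106 and 61.3 at 2 h, against 300, 360, 375 and 293 at 0 h. It was 4.64-fold lower at 2 h (adjusted p = 0.000424). Clrn3, a membrane protein of the clarin family, had 29.3, 15.9 and 19.1 at 2 h, against 72.7, 125, 137 and 97.2 at 0 h (-2.16 ± 0.30, adjusted p = 0.0017). Slc25a30, a mitochondrial carrier found in kidney, had 168, 28.3 and 185 at 2 h, against 328, 469, 548 and 448 at 0 h. Here 2 h replicate 2 lay far below the others, and the difference of -2.14 ± 0.55 (adjusted p = 0.033) was -1.31 without it. The call was lost without 0 h replicate 2, 3 or 4 (adjusted p = 0.0715, 0.0837 and 0.0757).

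Signalling and cytoskeletal genes followed. Csk, the kinase that restrains Src family kinases, had 63, 10.7 and 10.6 at 2 h, against 74.3, 94.7, 93.6 and 86.1 at 0 h (-1.93 ± 0.45, adjusted p = 0.0211). Its 2 h replicate 1 lay close to the 0 h arrays. Nox4, the hydrogen peroxide-producing oxidase abundant in kidney tubules, had 29.8, 10 and 32.7 at 2 h, against 69.8, 82.2, 124 and 99.9 at 0 h (-1.91 ± 0.37, adjusted p = 0.0108). Nr2f2, the nuclear receptor COUP-TFII of vascular and stromal cells, had 33.9, 12.1 and 12.7 at 2 h, against 61.2, 98.2, 76.7 and 67.9 at 0 h. It was lower by a log2 difference of -1.89 ± 0.37 (adjusted p = 0.0113). Cyfip2, a subunit of the actin-regulating WAVE complex, had 33.2, 11.8 and 22.4 at 2 h, against 69.8, 66.2, 80.1 and 148 at 0 h (-1.88 ± 0.34, adjusted p = 0.0075). Svil, the actin-binding protein supervillin, had 28.2, 4.73 and 51.3 at 2 h, against 81.4, 55.2, 124 and 90.9 at 0 h. Its call (-1.86 ± 0.51, adjusted p = 0.0419) was lost when any 1 of 6 arrays was left out, and its other probe set gave -0.23. Slc16a1, the lactate and pyruvate transporter MCT1, had 58.1, 20.5 and 85.9 at 2 h, against 198, 87.7, 172 and 327 at 0 h (-1.83 ± 0.48, adjusted p = 0.0362; -1.10 for a brighter probe set, adjusted p = 0.0177).

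Of the genes ranked 16 to 25 among the decreases, Slc40a1, the iron exporter ferroportin, was the most uniform. It had 56.6, 56.8 and 57 at 2 h, against 207, 222, 203 and 145 at 0 h (-1.70 ± 0.22, adjusted p = 0.0012). Maf, a basic leucine zipper factor, had 369, 126 and 273 at 2 h, against 787, 644, 853 and 1060 at 0 h (-1.80 ± 0.31, adjusted p = 0.00575). Pou3f3, a transcription factor of nephron development, had a difference of -1.71 ± 0.33, and Sostdc1, a secreted antagonist of BMP and Wnt signals, of -1.68 ± 0.36. Among genes of vessels and signalling were Esm1, the endothelial proteoglycan endocan (-1.70 ± 0.32), Gucy1b1, a subunit of the nitric oxide receptor guanylate cyclase (-1.75 ± 0.37), and Gng11, a G protein gamma subunit (-1.81 ± 0.40). Col4a5, a collagen chain of the glomerular basement membrane, had a difference of -1.68 ± 0.43, Cd200, a membrane glycoprotein that restrains myeloid cells, of -1.66 ± 0.24, and Dcakd, related to coenzyme A synthesis enzymes, of -1.73 ± 0.32. Without 2 h replicate 2 the calls of Csk (adjusted p = 0.0632), Svil (0.0633), Slc16a1 (0.104), Gng11 (0.0507) and Col4a5 (0.0645) were lost, and 20 of the 25 leading lower genes remained. These 5 calls were also lost on leaving out at least 1 of the 0 h arrays (adjusted p = 0.0522 to 0.11). Among the leading lower genes, Cyp2c11, Ppil3, Bmp4, Mamdc4, Clrn3, Csk, Nox4, Nr2f2, Cyfip2, Svil, Gng11, Gucy1b1 and Dcakd had a 2 h level below the filter.

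Several of the lower genes had probe sets that disagreed. Scd2, a stearoyl-CoA desaturase, gave -2.90 with the probe set named, -1.37 (adjusted p = 0.0199) with a second, and -0.54 and -0.36 with those that did not pass. The second probe set of Cyp2c11, a cytochrome P450 known as male-specific in rat liver, gave -0.65 (adjusted p = 0.189). A second probe set of Dcakd gave -0.52 (adjusted p = 0.266), and of the other 2 for Maf, one gave -1.69 (adjusted p = 0.0048) and one -0.68 (adjusted p = 0.589).

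**Figure D3:**
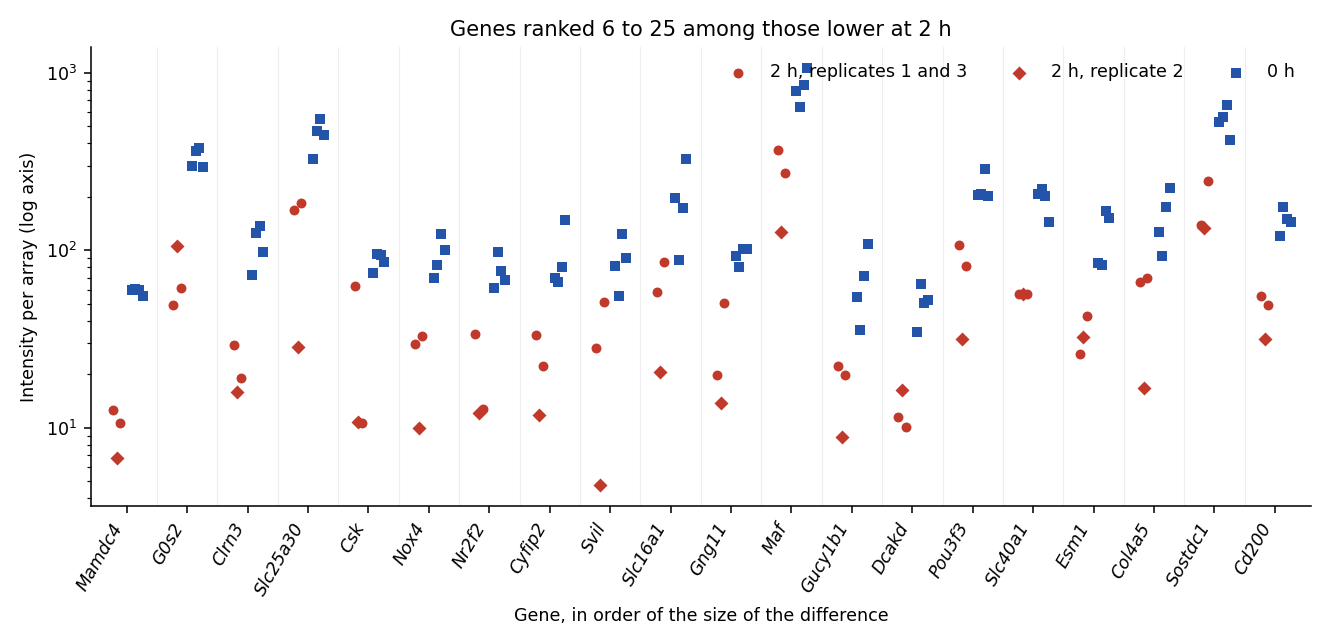
Intensities per array (log axis) of the genes ranked 6 to 25 among those lower at 2 h, with 2 h arrays in red on the left of each gene and 0 h arrays in blue on the right. Diamonds mark 2 h replicate 2, the lowest of the 2 h arrays for genes such as Slc25a30, Svil, Slc16a1, Maf, Pou3f3 and Col4a5, while the 3 arrays of Slc40a1 at 2 h lie together at 56.6 to 57.

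Genes were also read by function, with the brightest tested probe set of each gene. Of all 3174 genes, 4.35% were higher and 5.67% lower at 2 h, and the median difference was -0.07. Lists overlap, and Lcn2 for example counts in 3 of them. Setting aside genes with a 0 h level below the filter, tubular injury markers were higher in 6 of 11 and immediate early factors in 7 of 20. On the same basis the counts were 4 of 27 for extracellular matrix, 2 of 33 for growth factors, 4 of 33 for amino acid enzymes and 1 of 21 for vasoactive genes. The 4.35% above covers all tested genes, also those below the filter at 0 h, so it is not a matched share. The counts for growth factors and vasoactive genes lay near it and are not read as an increase of these groups. Of the 100 listed genes called, 48 had several tested probe sets, and for 29 of those at least 1 did not pass; 13 genes counted as not called had another probe set that passed. Glucocorticoid-induced genes were higher in 10 of 18 and lower in 1, with a median of 1.28. Besides the genes above, Klf9, a transcription factor and receptor target, rose by 1.18 ± 0.18 (1220, 1240 and 906 at 2 h, against 475, 458, 527 and 491 at 0 h). Zfp36, the protein tristetraprolin that speeds decay of cytokine mRNAs, rose by 1.37 ± 0.23 (496, 598 and 551 at 2 h, against 191, 282, 227 and 157 at 0 h). Hsd11b2, which inactivates cortisol and corticosterone in aldosterone target cells, was lower by a log2 difference of -0.82 (adjusted p = 0.0495), a call lost without 2 h replicate 2 (adjusted p = 0.127), when the brightest probe set of Errfi1 passed (1.66, adjusted p = 0.00124). Pck1, the gluconeogenic carboxykinase, had 2740, 6250 and 2150 at 2 h, against 2910, 3580, 2780 and 3270 at 0 h, and did not pass (0.09, adjusted p = 0.86). Glul, glutamine synthetase, likewise did not pass (0.23, adjusted p = 0.54).

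Immediate early and stress transcription factors were higher in 8 of 21 and lower in 0, with a median of 0.58. The AP-1 subunit Jun rose by 1.96 ± 0.26 (535, 636 and 597 at 2 h, against 147, 191, 97.5 and 178 at 0 h). Its partner Junb rose by 1.53 ± 0.19 (221, 182 and 224 at 2 h, against 65, 80.3, 61.8 and 74.1 at 0 h). Egr1 (1.83), Myc (1.63), Gadd45a (1.42) and Nr4a1 (1.30) rose as well, as did Atf3 (1.46, adjusted p = 0.0232; 0.0581 with the replicate number as a block). Fos, the AP-1 subunit that heads the class, had 240, 176 and 228 at 2 h, against 179, 128, 141 and 123 at 0 h, and did not pass with its brightest probe set (0.58, adjusted p = 0.0974). A dimmer Fos probe set had 88.3, 85.6 and 87.8 at 2 h, against 50.6, 38.1, 29.4 and 34.2 at 0 h, and passed (1.15, adjusted p = 0.0114). For Egr1 the other 3 probe sets did not pass (0.39 to 1.30).

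Acute-phase proteins were higher in 8 of 17 and lower in 0 (median 1.72). The 0 h level of 4 of these 17 was below the filter; among the other 13, 5 were higher. Ceruloplasmin (Cp), the copper-carrying ferroxidase, rose by 1.72 ± 0.26 (243, 146 and 269 at 2 h, against 64.8, 59.4, 59 and 66 at 0 h). Haemopexin (Hpx), a haem-binding liver protein, had 35, 428 and 51.4 at 2 h, against 31.9, 32.8, 22.2 and 24.2 at 0 h, so that the high value sat on the array with liver transcripts (adjusted p = 0.116). Kininogen Kng2 missed the threshold (2.82, adjusted p = 0.0516) and passed with the block (1.93, adjusted p = 0.0325). A second probe set of Cp gave 0.38 (adjusted p = 0.568). A2m, alpha-2-macroglobulin, did not pass (0.05, adjusted p = 0.903).

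Cytokines, chemokines and adhesion molecules were higher in 6 of 16 and lower in 0, with a median of 0.59. Icam1, an adhesion molecule for leukocytes, rose by 2.22 ± 0.31 (848, 349 and 904 at 2 h, against 140, 121, 159 and 124 at 0 h). P-selectin (Selp), which captures leukocytes and platelets on endothelium, rose by 2.24 ± 0.41 (305, 94.7 and 216 at 2 h, against 51.7, 51.9, 24.6 and 25.8 at 0 h). Vcam1, another endothelial adhesion molecule, rose by 1.59 ± 0.24, the chemokine Ccl20 by 1.91 ± 0.54 and the cytokine Il1b by 1.33 ± 0.30. The count was 8 of 16 without 2 h replicate 2, with Ccl2 and the receptor Il6r (0.83, adjusted p = 0.0453) added. The cyclooxygenase Ptgs2 did not pass (-0.92, adjusted p = 0.454), but with the block it was lower (-1.84, adjusted p = 0.0127). Ccl2, a monocyte chemokine, had 241, 38 and 194 at 2 h, against 85.8, 51.4, 51.8 and 61.7 at 0 h. It did not pass with all arrays (0.96, adjusted p = 0.25) and passed without that array (1.76, adjusted p = 0.00911).

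Markers of tubular injury were higher in 7 of 12 and lower in 0 (median 1.39). Clusterin (Clu), a secreted chaperone, rose by 1.75 ± 0.35 (1110, 952 and 744 at 2 h, against 551, 188, 227 and 232 at 0 h). Vimentin (Vim), a filament protein of mesenchymal and injured tubule cells, rose by 1.61 ± 0.23 (343, 344 and 241 at 2 h, against 100, 85.3, 87.8 and 122 at 0 h). Osteopontin (Spp1) rose by 2.02 ± 0.55 and Anxa2 by 1.17 ± 0.30; Anxa2 had an adjusted p of 0.0562 with the replicate block and 0.0638 without 2 h replicate 2. Haem oxygenase Hmox1 had 545, 62.6 and 645 at 2 h, against 50.2, 76.4, 63.1 and 66.1 at 0 h. Replicate 2 alone lay among the 0 h arrays, and the gene missed the threshold with it (2.10, adjusted p = 0.0503) and passed without it (3.16, adjusted p = 6.15e-06).

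Markers of macrophages and neutrophils moved in the same samples: 5 of 7 were higher and 0 lower, and the summed level of the 10 such genes on the array was 1839 to 2299 at 2 h, against 854 to 1079 at 0 h. Cd14, the endotoxin coreceptor, had 220, 271 and 273 at 2 h, against 59.6, 116, 57.9 and 71.4 at 0 h (1.74 ± 0.25). C1qb, a complement subunit made by macrophages, rose by 1.44 ± 0.25 and Lyz2, lysozyme, by 1.04 ± 0.20. C1qc, another marker on this list, did not pass (0.45, adjusted p = 0.236). It had 167, 286 and 193 at 2 h, against 131, 192, 138 and 156 at 0 h. Ptprc, the CD45 antigen of all leukocytes, had 70.8, 37.9 and 63.3 at 2 h, against 61, 55, 48.9 and 49.1 at 0 h, and did not pass (0.05, adjusted p = 0.901). Csf1r and Itgam, which define macrophages and myeloid cells, were below the filter. Of the 5 higher genes, 3 had a 0 h level at or above the filter. The part of such cells in the cytokine and injury genes was not tested.

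Chaperones were higher in 7 of 23 and lower in 0, with a median of 0.60. Hsph1, a nucleotide exchange factor of the HSP70 system, rose by 1.64 ± 0.26 (571, 782 and 626 at 2 h, against 276, 237, 163 and 172 at 0 h), and its cochaperone Dnajb1 by 0.92 ± 0.20. The endoplasmic reticulum chaperones Hspa5 (0.97) and Pdia4 (1.02) and the cytosolic Dnaja1 (1.06), Hspb1 (0.87) and Hsp90ab1 (0.60) rose, but with the replicate block their adjusted p were 0.0707, 0.0624, 0.0593, 0.0624 and 0.0989 in that order. Hspb1 has dimmer probe sets that gave 2.02 (adjusted p = 0.000685) and 1.88 (0.000858), and one that did not pass (0.33). A second probe set gave 0.18 for Hsph1 (adjusted p = 0.737) and -1.44 for Dnaja1 (adjusted p = 0.193). The count was 3 of 23 without 2 h replicate 2, when Hspa5, Hspb1, Hsp90ab1 and Dnaja1 did not pass (adjusted p = 0.0782 to 0.122).

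Calls in metabolism are read against 4.35% higher and 5.67% lower of all genes. Of 35 enzymes of amino acids, polyamines and urea, 5 were higher (14.3%) and 2 lower (5.71%), with a median of -0.07. Odc1, the first enzyme of polyamine synthesis, rose by 1.29 ± 0.27 beside Amd1 (1070, 2270 and 1160 at 2 h, against 783, 453, 597 and 513 at 0 h). The aminotransferase Got1 rose by 0.68 and asparagine synthetase Asns by 0.96 (adjusted p = 0.0912 with the block), while Kynu of the kynurenine pathway fell by 0.86 and Bckdhb of branched-chain catabolism by 0.87. Without 2 h replicate 2, 3 of the 35 were higher, since Got1 (adjusted p = 0.0645) and Asns (0.0939) no longer passed. Among 26 genes of glucose metabolism 0 were higher and 1 was lower: Pdp2, the phosphatase that activates pyruvate dehydrogenase, at -2.18 ± 0.32 (113, 46.6 and 60.8 at 2 h, against 376, 335, 322 and 272 at 0 h). Fatty acid oxidation had 1 of 26 higher, the hydroxylase Cyp4a8 (1.14 ± 0.20), and 2 lower, Bdh1 (-1.01) and Etfa (-0.81). Neither Bdh1 nor Etfa passed with the block (adjusted p = 0.0695 and 0.0824) or without 2 h replicate 2 (adjusted p = 0.13 and 0.0972).

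Cholesterol and lipid synthesis held 2 higher and 2 lower of 22. Insig1, which retains the sterol sensor in the endoplasmic reticulum, rose by 0.95 ± 0.25, and the lipoprotein lipase Lpl by 1.46 ± 0.30, while Scd2 and the sterol oxidase Msmo1 (-0.92 ± 0.19) were lower. Drug metabolism genes were higher in 3 of 29 (10.3%, against 4.35% of all genes) and lower in 1, Cyp2c11. The higher ones were Sult1a1, Gstm1 (1.13) and the cytochrome P450 reductase Por (0.71, with an adjusted p of 0.056 with the block). Of 20 antioxidant genes 3 rose (15%) and 0 were lower. Mitochondrial superoxide dismutase Sod2 rose by 1.23, the peroxidase Prdx6 by 0.94 and plasma glutathione peroxidase Gpx3 by 0.70. Gpx3 had 9960, 11400 and 10300 at 2 h, against 6730, 6490, 5730 and 7120 at 0 h. The count of antioxidant genes was 5 without 2 h replicate 2, with Hmox1 and Txnrd1 added.

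Of 30 organic ion, peptide, amino acid and anion transporters, 0 were higher and 5 lower (16.7%, against 5.67% of all genes), with a median of -0.15. Without 2 h replicate 2 the count was 3, as Slc6a6 (adjusted p = 0.0778) and Slc16a7 (0.0734) did not pass. In that setting lower probe sets numbered 159 in all, against 261 with all arrays. Slc22a6, the organic anion transporter OAT1 of the proximal tubule, had 852, 684 and 965 at 2 h, against 1280, 1360, 1560 and 1490 at 0 h (-0.78 ± 0.18, adjusted p = 0.0211). The other 4 were the taurine transporter Slc6a6 (-1.19), the monocarboxylate transporters Slc16a7 (-1.36) and Slc16a1, and the nucleoside transporter Slc29a1 (-0.82). Among 35 sodium, potassium and water transport genes 3 were higher and 2 lower, Slc12a1 and Hsd11b2 (median -0.27). The lower share of 5.71% was near the 5.67% of all genes. Kcnk1, a potassium channel, rose by 1.20 ± 0.24 and Atp1b3, a sodium pump subunit, by 0.88 ± 0.19, beside Sgk1. Slc12a1, the furosemide-sensitive cotransporter, had 82, 62.1 and 52.3 at 2 h, against 114, 114, 164 and 129 at 0 h (-0.96 ± 0.22, adjusted p = 0.0193; 0.0505 with the block). The sodium channel subunit Scnn1a did not pass (-0.20, adjusted p = 0.746), nor did the glucocorticoid receptor gene Nr3c1 (-0.99, adjusted p = 0.0691).

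Extracellular matrix and remodelling genes were higher in 5 of 28 and lower in 0 (median 0.31). Mgp, an inhibitor of calcification, rose by 1.60 ± 0.25 (1570, 2300 and 2110 at 2 h, against 733, 558, 561 and 769 at 0 h), and the collagen crosslinker Lox by 1.90 ± 0.43 and the growth factor Tgfb1 by 1.13 ± 0.30, beside Spp1 and Timp1. Without 2 h replicate 2 the count was 3, as Lox (adjusted p = 0.0505) and Tgfb1 (0.0604) no longer passed. With the block Col3a1, a fibrillar collagen chain, was higher (1.37, adjusted p = 0.0202; 1.13 and 0.086 without the block). The other probe sets of Lox gave 0.07 and 0.91 and did not pass. Growth factor genes held 3 higher and 2 lower of 34: besides Igfbp1 and Bmp4, Igf1r rose by 0.85 and the activin antagonist Fst by 1.85, and Igfbp5 was lower (-1.32; adjusted p = 0.0549 with the block and 0.136 without 2 h replicate 2). Of 22 renin-angiotensin and vasoactive genes, the vasoconstrictor peptide gene Edn1 rose by 1.45 ± 0.22 (63.5, 83.3 and 57.6 at 2 h, against 23.6, 26, 18.8 and 22 at 0 h). The adenosine receptor Adora2a rose by 0.80, and the adrenergic receptor Adra1b fell by 0.97. Cyp27a1, a sterol hydroxylase, was the only call (1.36) among 16 calcium, phosphate and vitamin D genes, though with the block the calcium receptor Casr (-1.25, adjusted p = 0.0259) and the calcium-binding Calb1 (-1.72, adjusted p = 0.0344) were lower, and the survival factor Bcl2l1 (0.97) the only one among 18 cell cycle genes. Without 2 h replicate 2 Bcl2l1 did not pass (adjusted p = 0.102) and Bcl2 did (0.93, adjusted p = 0.0322), and the parathyroid hormone receptor Pth1r was lower (-0.79, adjusted p = 0.0391).

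In each of the groups that follow, at most 2 genes passed in either direction with limma at this threshold. Of all genes 4.35% were higher and 5.67% lower. The shares higher were 8.33% for proteasome subunits and 14.3% for antigen presentation genes. None of 35 ribosomal protein genes was called (median -0.03), while with the block Rpl26 was lower (-0.89, adjusted p = 0.0454). Of 54 oxidative phosphorylation genes Cox4i1 was higher (0.87) and Atp5f1a lower (-0.68), both lost with the block (adjusted p = 0.078 and 0.0594), with which Ndufc2 (-1.14, adjusted p = 0.0462) and Sdha (-1.32, adjusted p = 0.0395) were lower. Of 24 proteasome subunits, the inducible Psmb8 (0.82) and Psmd4 (0.99) were higher, also lost with the block (0.0728 and 0.0726), and Psmb8 and Tap2 (0.88) were the 2 higher among 14 antigen presentation genes. None of Cox4i1, Atp5f1a, Psmb8, Psmd4 and Tap2 passed without 2 h replicate 2 (adjusted p = 0.0627 to 0.116), and Tap1 then did (1.00, adjusted p = 0.0311). None of 8 clock genes was called; the output factor Dbp had 94, 185 and 67.5 at 2 h, against 172, 351, 361 and 213 at 0 h (-1.28, adjusted p = 0.0511). It passed without 2 h replicate 2 (-1.67, adjusted p = 0.0141) and with the block (adjusted p = 0.0362). Among markers of kidney segments, 1 of 13 for the proximal tubule (Slc22a6) and 1 of 4 for the thick ascending limb (Slc12a1) were lower, and 0 of 4, 0 of 8 and 0 of 2 passed for the distal tubule, collecting duct and podocyte. The distal tubule gene Calb1 missed the threshold (-1.88, adjusted p = 0.0633) and passed with the block, as given above. Of 6 endothelial markers Esm1 was lower, and the median of the 6 was -0.65. Markers of smooth muscle (5 tested), red cells (4), adipose tissue (2) and skeletal muscle and pancreas (4) had 0 calls. Of 8 liver markers Cyp2c11 was lower, of 6 lymphocyte markers Cd8b was higher (1.08) and Thy1 lower (-0.87), and of 4 adrenal markers Pnmt was higher (1.08, adjusted p = 0.0482). With the block Cd8b (adjusted p = 0.054) and Thy1 (0.0708) did not pass. Cd8b (adjusted p = 0.0556) and Pnmt (0.143) did not pass without 2 h replicate 2, while Umod (-0.65, adjusted p = 0.02) and the haemoglobin gene Hbb (-0.92, adjusted p = 0.0326) then did.

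**Figure D4:**
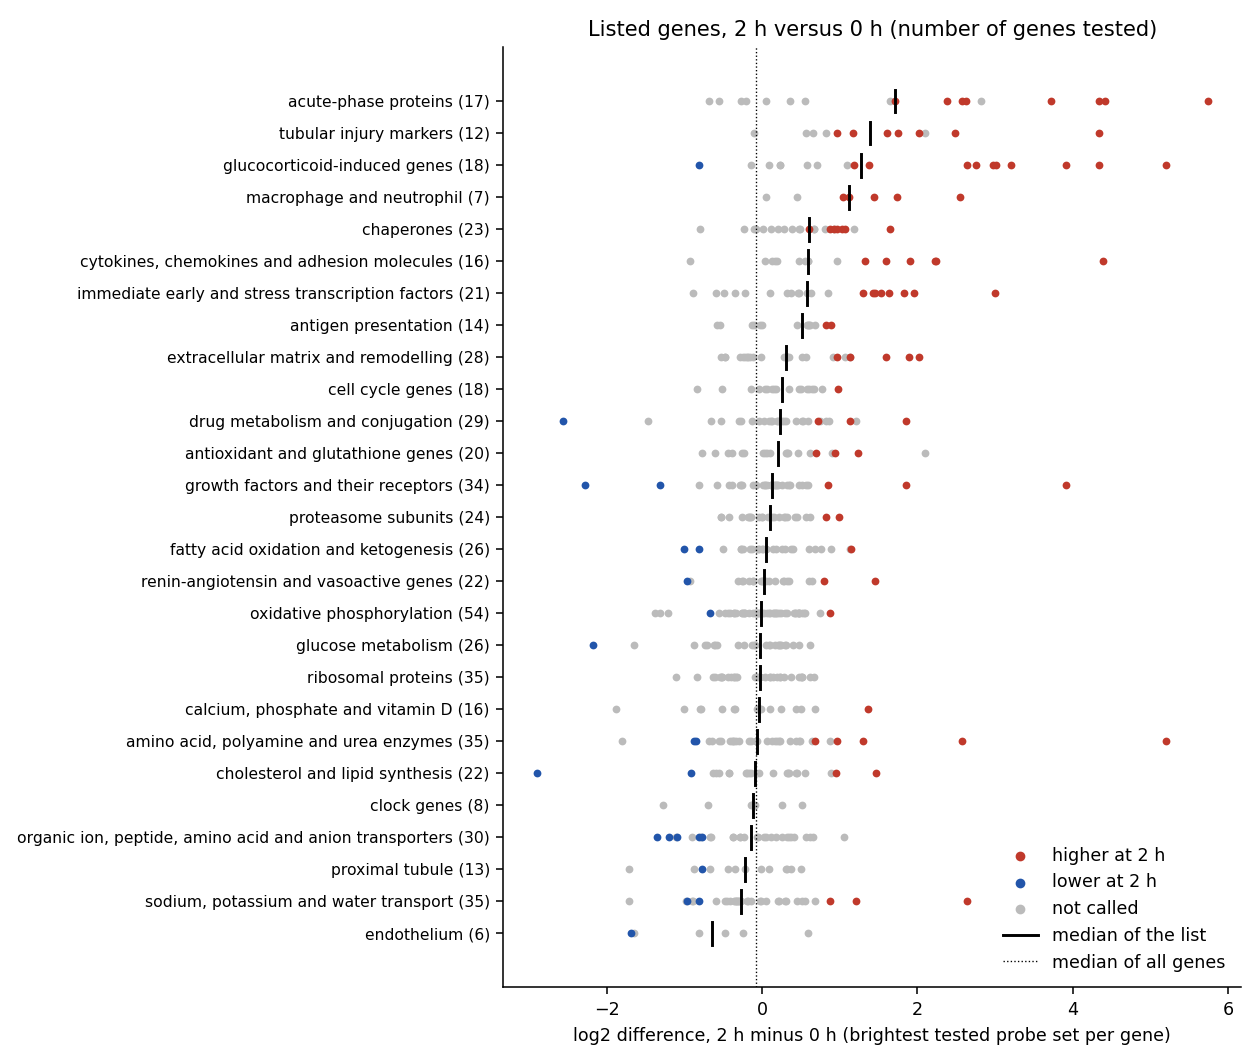
Each point is a listed gene with its log2 difference of 2 h minus 0 h, coloured where the adjusted p was under 0.05; the bar is the median of the list and the dotted line that of all genes (-0.07). Acute-phase, tubular injury and glucocorticoid-induced genes have the highest medians (1.72, 1.39 and 1.28), and ribosomal and oxidative phosphorylation genes lie around the median of all genes.

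The main array type of the series also has 3 arrays at 2 h and 4 at 0 h with the same sample numbers; the labels do not say whether the same RNA was used, so both types are given side by side without a test between them. On the main type 2.61% of 9520 probe sets were higher and 1.51% lower, and of its genes, each by its brightest probe set, 2.65% and 1.53%. Named genes are given by their probe set of largest difference on the second type and by their brightest one on the main type. They were chosen by their second-type values, so smaller differences on the main type follow in part from the choice. Of the 20 leading higher genes that were tested there, 17 were called, with differences of 1.42 to 5.02 over all 20. Igfbp1 differed by 3.92 on the second and 3.67 on the main type, Amd1 by 2.57 and 2.66, Sgk1 by 2.64 and 2.55, Lcn2 by 4.34 and 4.09, and Cxcl10 by 4.38 and 3.87. The brake Nfkbia differed by 3.06 on the second and 4.03 on the main type. Those not called on the main type were Klf6, Havcr1 and Timp1. Klf6 differed by 2.99 and 1.42 (adjusted p = 0.0894 on the main type). For Havcr1 the values were 2.48 and 2.75 (adjusted p = 0.125), and for Timp1 2.28 and 1.96 (adjusted p = 0.0853). Of the 23 leading lower genes tested on the main type, 11 were called. G0s2 differed by -2.21 on the second and -2.44 on the main type, and Esm1 by -1.70 and -1.58. For Ppil3, a peptidyl-prolyl isomerase, the values were -2.48 on the second and -0.18 on the main type, for Csk -1.93 and -0.09, for Svil -1.86 and -0.14, for Dcakd -1.73 and -0.13, and for Col4a5 -1.68 and -0.08. On the main type none of these 5 passed (adjusted p = 0.674 to 0.916), and Ppil3 had 84.3, 91.8 and 100 at 2 h, against 116, 98.2, 107 and 99.1 at 0 h.

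**Figure D5:**
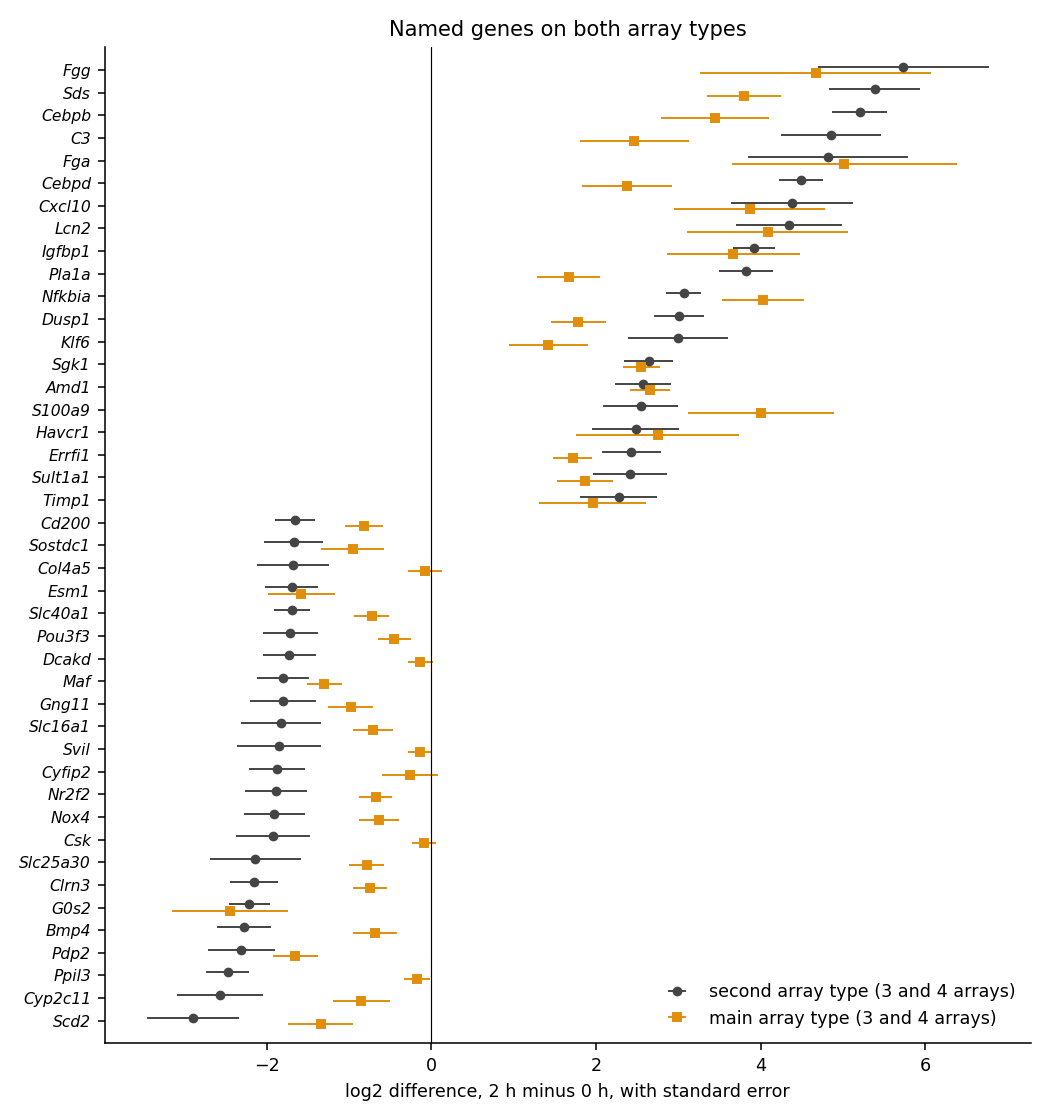
Log2 differences of 2 h minus 0 h with their standard errors for the 43 named genes tested on both array types, circles for the second type and squares for the main type. Increases are large on both, while Ppil3, Csk, Svil, Dcakd and Col4a5 lie near 0 on the main type. The probe set shown is that of largest difference on the second type and the brightest on the main type.

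At 6 h on the second type (3 arrays) the median difference from 0 h was 1.90 over the 25 leading higher genes and -0.57 over the 25 leading lower ones, against 3.01 and -1.88 at 2 h. All comparisons with 0 h share the same 4 arrays. The genes were also chosen by their 2 h values, which the difference of 6 h minus 2 h uses again, so smaller differences at 6 h and more calls than over all probe sets follow in part from the choice and are given as a description. The difference of 6 h minus 2 h passed for 14 of the 50 named genes; over all probe sets 0.686% were higher and 0.744% lower at 6 h than at 2 h. Cxcl10 had 35.3, 30.3, 31.2 and 19.8 at 0 h, 1470, 112 and 1770 at 2 h, and 29.7, 29.8 and 13.5 at 6 h. Its difference of 6 h minus 2 h was -4.65 (adjusted p = 0.0212). Cebpd had 43.2, 58.3 and 94.3 at 6 h (-1.76 from 2 h, adjusted p = 0.0157), and Serpina3n 108, 45.6 and 42.9 (-1.97, adjusted p = 0.03). G0s2, at 307, 298 and 266 at 6 h, was higher than at 2 h by 2.03 (adjusted p = 0.00464), and Mamdc4, at 41.5, 53.2 and 65.4, by 2.08 (adjusted p = 0.00362). Sult1a1 alone of the 14 moved further from 0 h, with 1200, 897 and 1290 at 6 h (2.31 from 2 h, adjusted p = 0.0423). For Sgk1 (0.10, adjusted p = 0.905), Dusp1 (0.20, adjusted p = 0.801) and Igfbp1 (-0.56, adjusted p = 0.321) the difference between 6 h and 2 h did not pass.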

How the data were processed

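Kidney RNA was hybridised to Affymetrix expression arrays of a pair of types. The values are linear intensities as deposited by the authors, one per probe set and array, scaled so that the trimmed mean of each second-type array lies between 150.19 and 150.23; how probes were summarised is not stated per the labels. The deposited values had no log2 scale; log2(intensity + pseudocount) was computed here with the 10th percentile of the table as pseudocount (3.54 for the second and 7.55 for the main type). Of 8799 probe sets on the second type, 59 controls and those with a mean log2 value under the 40th percentile (intensity 25.3) were left out, leaving 5244. All 10 second-type arrays (0 h, 2 h and 6 h) entered one fit with limma 3.58.1 in R 4.3.3 (lmFit, eBayes with a mean-variance trend), with Benjamini-Hochberg adjustment over all tested probe sets and a threshold of 0.05. The procedure was tested on simulated data. The number of arrays limits the precision.

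The platform annotation gave 1 gene symbol to 7006 second-type probe sets, several to 308 and none to 1426. Named genes were those with 1 symbol, an adjusted p under 0.05 and no overlap between 2 h and 0 h arrays, each with its probe set of largest difference, ranked by difference in each direction; ranks 1 to 25 are named and ranks 6 to 25 described. From the gene lists, members past the threshold and a few defining members that did not pass are named, with the brightest tested probe set. Members and lists were chosen with earlier results of these data known. Promoter windows were read from a RefSeq table (GRCr8), in which 40 of the 50 named genes had one.

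Sample numbers 1 to 3 recur at both times in the titles. Deviations from the group means of same-numbered arrays correlated with r of 0.145, 0.251 and 0.262 across probe sets. Differently numbered arrays gave -0.308 to 0.260, the highest for 2 h replicate 1 with 0 h replicate 4. These values therefore do not show whether the numbers pair the samples. The replicate number was entered as a block in an alternative fit, and the p-values of the main fit take no pairing into account. The fit without the block stays the one reported, and values with the replicate block are given for genes named in the text whose call they change. Alternatives covered the filter, pseudocount, normalization, samples in the fit, moderation, array weights, block, array letter and each array left out.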

Additional observations from a re-analysis of the deposited data

Results flagged for a closer look

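Among the 50 named genes, the 4 arrays at 0 h were examined for a single array far from the rest, by the gap to its neighbour over the group's range against Dixon's value of 0.829. Mamdc4 (0.894) and Pou3f3 (0.923) passed it; chance flags about 1 in 20 groups, and 50 groups were examined.

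The difference of 6 h minus 2 h passed an adjusted p of 0.05 in limma for 14 named genes, which were chosen by the same 2 h values. Of those higher at 2 h, it was negative for Cebpb (-1.65), Cebpd (-1.76), Cxcl10 (-4.65), Nfkbia (-1.16) and Serpina3n (-1.97) and positive for Sult1a1 (2.31). Of those lower at 2 h, it was positive for Scd2 (2.73), Ppil3 (1.91), Bmp4 (1.87), Mamdc4 (2.08), G0s2 (2.03), Clrn3 (1.59), Cyfip2 (1.69) and Maf (1.61).

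On 2 h replicate 2, probe sets of liver and fat genes had intensities at least 10 times those in the control arrays at 0 h. They were Alb (156, 166 and 299 for 3 probe sets), Ttr (59.8), Serpina1 (128 for each of its probe sets), Ucp1 (576 and 247), Cfd (128) and Fabp4 (51.6).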

How the results depend on the processing

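Of the 644 probe sets of named and listed genes followed, 0 differences past the threshold changed sign under an alternative run. Of those that had not passed, 2 changed sign and passed: Txnrd1 (-0.27) was 0.69 without 2 h replicate 2 (adjusted p = 0.033; -0.75 to 0.69 with single arrays left out), and Hbb (-0.30) was 0.95 without arrays of letter b or c (adjusted p = 0.0413). A further 524 sign changes, counted over probe sets and settings, passed on neither side. Higher probe sets numbered 253 and lower ones 261. With each array left out in turn the counts ran from 141 to 286 higher and from 92 to 454 lower. They were 150 higher and 92 lower without 0 h replicate 3, 141 and 92 without 0 h replicate 4, 132 lower without 0 h replicate 2, 159 lower without 2 h replicate 2 and 454 lower without 2 h replicate 3. Without arrays of letter b or c, which leaves 2 h replicate 2 alone at 2 h with its spread assumed like that of the other groups, the counts were 453 higher and 939 lower. With only the 0 h and 2 h arrays in the fit, 160 were lower. The replicate block gave 211 higher and 243 lower, changed the call of none of the 50 named genes, and among 611 listed genes removed 13 of 79 higher and 6 of 21 lower calls and added 9. On the main type (248 higher, 144 lower), the fit of 0 h and 2 h arrays alone gave 376 higher and 239 lower, array weights 692 and 768, leaving out letters b and c 70 lower, and the block 209 and 103; single arrays left out gave 145 to 209 higher (at 2 h, 145 with replicate 1 left out and 149 with replicate 3) and 58 to 122 lower (at 2 h, 58 with replicate 1 left out and 61 with replicate 3; at 0 h, 72 with replicate 3 and 87 with replicate 4). The count of named genes that differed between 6 h and 2 h (14) was 7 with the filter at the 60th percentile, 23 without letters b and c, 16 with the block and 5 to 22 with single arrays left out (at 2 h, 5 with replicate 3 left out and 22 with replicate 2; at 0 h, 9 with replicate 1 or 2 and 8 with replicate 4); the fit of 0 h and 2 h arrays alone cannot give it. Of the 50 named genes, 0 to 6 lost their call with a single array left out, 8 without letters b and c, 5 with only 0 h and 2 h arrays, 2 without the filter and 1 with array weights; 24 were tested, and called, at the 60th percentile filter. Causes of these changes were not tested.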

Other observations

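Probe sets below the expression filter hold further genes with higher 2 h values, picked here after their values were seen. Without the filter, limma called 62 higher and 64 lower among these 3496 probe sets, against 267 higher and 240 lower of all 8740. Only higher ones are named here. Il6, the cytokine that drives acute-phase synthesis in liver, had 54, 17.1 and 59.6 at 2 h, against 2.44, 2.1, 2.99 and 1.62 at 0 h. Akap12, a scaffold of protein kinase A, had 111, 136 and 95.5 at 2 h, against 5.75, 10.1, 6.6 and 5.56 at 0 h. Pdk4, the kinase that switches off pyruvate dehydrogenase and a known glucocorticoid target, had 45.7, 153 and 49.6 at 2 h, against 6.68, 2.62, 2.77 and 4.03 at 0 h. The chemokine Cxcl2 had 32, 17.2 and 25 at 2 h, against 1.46, 3.16, 1.23 and 1.22 at 0 h. For the chemokine Ccl3 the values were 44.9, 12 and 35.4 at 2 h, against 1.89, 1.85, 3.23 and 2.1 at 0 h. A dimmer probe set of Hmox1 had 246, 49.6 and 196 at 2 h, against 11.8, 6.2, 6.51 and 2.91 at 0 h.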
